A study of Homo sapiens with 12 samples.

Results

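Bile acid genes were followed across 12 RNA sequencing libraries of hepatocyte-like cells grown from H9, an established line of human embryonic stem cells. The set holds 10 genes chosen for their roles: CYP7A1, CYP8B1, CYP27A1, CYP7B1 and BAAT in synthesis, SLC10A1 and ABCB11 in transport, and NR1H4, NR0B2 and FGF19 in sensing. They are 10 of the 23922 genes in the deposited tables, found there by their Entrez numbers. The 6 groups of 2 libraries each were cells of day 19 with 30 nM T4, of day 19 with 30 nM T3 and of day 19 with 0.1% DMSO as the control, and cells of day 7 with 30 nM T4, of day 7 with 30 nM T3 and of day 7 with 0.1% DMSO. The labels name cells of day 19 hepatocytes and cells of day 7 hepatoblasts, the liver progenitors. T3 (triiodothyronine) and T4 (thyroxine) are the thyroid hormones, and T4 carries an additional iodine. The labels give neither the time at which hormone was added nor the vehicle of the hormone-treated cells. Nothing states that paired libraries were from different cultures, so the p-values reflect the spread between libraries alone, and this may be technical.

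Hepatocytes turn cholesterol into bile acids by a pair of routes. In the classic route CYP7A1 is the rate-limiting enzyme and CYP8B1 decides whether cholic acid is made, while the alternative route uses CYP27A1 and then CYP7B1. BAAT joins bile acids to glycine or taurine, ABCB11 (the bile salt export pump) secretes them into bile, and SLC10A1 (NTCP) takes them up again from blood. Bile acids bind the nuclear receptor NR1H4 (FXR), which induces the repressor NR0B2 (SHP) and, in the ileum, the hormone FGF19, and both lower CYP7A1 in the liver. Thyroid hormone receptors bind DNA at repeats of a short motif, AGGTCA.

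RefSeq promoter windows of build GRCh38.p14, running from 250 bases before to 50 after a start site, were read for 5 of the 10 genes. These were NR1H4, CYP27A1, SLC10A1, ABCB11 and BAAT. Windows of the remaining genes of the set were not read, which does not mean that each of them lacks a window or a motif. The windows shown belong to SLC10A1 and CYP27A1, which held most of the set's RNA, and to ABCB11, which stayed near 0 throughout. They are written 5′ to 3′ on the gene's strand, with any AGGTCA motif of either strand in capitals.
SLC10A1, chr14:69797192-69797491, minus strand: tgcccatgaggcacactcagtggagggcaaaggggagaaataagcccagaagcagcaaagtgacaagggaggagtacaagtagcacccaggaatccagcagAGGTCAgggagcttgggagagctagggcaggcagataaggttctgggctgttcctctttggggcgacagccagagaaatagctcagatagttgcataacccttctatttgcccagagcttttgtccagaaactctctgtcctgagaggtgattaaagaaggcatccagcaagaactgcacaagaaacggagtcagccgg
CYP27A1, chr2:218781897-218782196, plus strand: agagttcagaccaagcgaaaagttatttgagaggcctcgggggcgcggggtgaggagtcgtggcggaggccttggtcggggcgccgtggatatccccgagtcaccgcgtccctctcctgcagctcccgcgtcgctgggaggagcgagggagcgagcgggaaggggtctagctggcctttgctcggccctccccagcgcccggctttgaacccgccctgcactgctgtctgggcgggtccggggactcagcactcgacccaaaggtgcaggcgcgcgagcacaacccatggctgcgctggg
ABCB11, chr2:169031275-169031574, minus strand: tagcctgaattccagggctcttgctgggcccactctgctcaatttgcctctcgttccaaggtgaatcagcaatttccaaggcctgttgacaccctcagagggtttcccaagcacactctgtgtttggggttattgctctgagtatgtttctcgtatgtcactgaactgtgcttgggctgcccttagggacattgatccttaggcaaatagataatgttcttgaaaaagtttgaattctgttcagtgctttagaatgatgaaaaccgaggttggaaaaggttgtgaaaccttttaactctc
The window of SLC10A1 held 1 such motif, at bases 102 to 107 of the window. The windows of CYP27A1 and ABCB11 held 0. Among the other windows, that of NR1H4 and 1 of the 2 windows of BAAT held 1 such motif each, both on the opposite strand. For comparison, 13.8% of the 35116 promoter windows of the same length held an AGGTCA motif on either strand. The paired forms AGGTCANAGGTCA, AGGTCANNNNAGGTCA and AGGTCANTGACCT, each of which contains an AGGTCA motif, were in 0 of the 6 windows of these genes, and in 8, 7 and 0 windows of all. These matches describe the letters of the windows and are not binding sites.

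Libraries held 18363548 to 19306147 counts. Of the 10 genes, 7 passed the filter on low counts and were tested with 18101 genes in all. NR0B2 had 20 counts over the 12 libraries, ABCB11 had 19 and CYP7A1 had 4, and these 3 genes were not tested. NR1H4 and BAAT passed through their levels at day 19 alone and FGF19 through its levels at day 7 alone, so their difference between the days was in part set by the filter. The hepatocyte markers (10 genes such as ALB, APOA1 and TTR) were detected in every group. Their summed level was 4909 to 5210 CPM (counts relative to the library's total, scaled by TMM) with T4 at day 19, 1950 to 2668 CPM with T3 at day 19 and 25180 to 27781 CPM in DMSO cells of day 19, against 3608 to 3629 CPM in DMSO cells of day 7. The lower sum with T3 at day 19 than in DMSO cells of day 7 lies in APOA1 (mean 867 against 2010 CPM) and TTR (260 against 543 CPM), while 6 of the 10 markers had a higher mean, SERPINA1 (166 against 62.0 CPM) and ASGR1 (18.1 against 9.09 CPM) among them. Albumin itself, ALB, averaged 1.23 CPM with T3 at day 19 and 1.13 CPM in DMSO cells of day 7.

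In DMSO cells SLC10A1 and CYP27A1 dominated the set at day 19, while CYP27A1 dominated it at day 7. On the FPKM scale, which divides by transcript length, SLC10A1 held 59.2% and CYP27A1 35.7% of the set's summed level of 65.2 FPKM in DMSO cells of day 19. In DMSO cells of day 7 the sum was 17.5 FPKM, of which CYP27A1 held 75.9%. The sum at day 19 was 37.9 FPKM with T4 and 27.3 FPKM with T3, and SLC10A1 held 62.1% of it with T4 and 57.8% with T3. The export pump ABCB11 was at or below 0.03 FPKM and CYP7A1 at or below 0.02 FPKM in the mean of every group, so the uptake carrier and the first enzyme of the alternative route were measured well, and the exporter and the first enzyme of the classic route were close to the limit of detection.

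**Figure D1:**
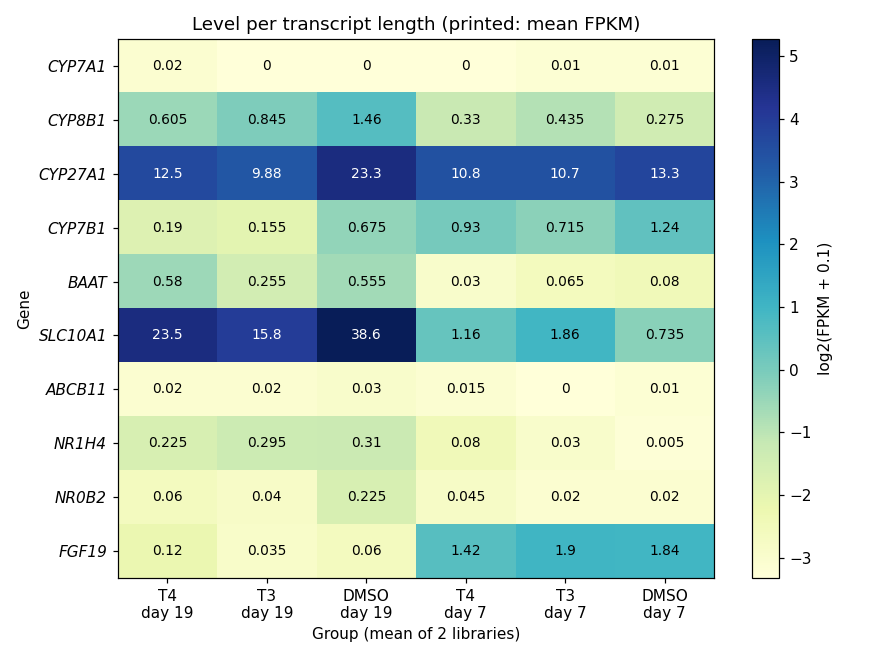
Mean FPKM of the 10 bile acid genes (rows) in the 6 groups (columns), with colour on the log2(FPKM + 0.1) scale and the mean of 2 libraries printed in each cell. SLC10A1 and CYP27A1 are the only genes above 2 FPKM in any group, at 38.6 and 23.3 FPKM in DMSO cells of day 19.

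The classic enzyme CYP7A1 had 1 count in each T4 library of day 19, and 0 counts in the T3 and DMSO libraries of day 19. At day 7 it had 0 counts in both T4 libraries and 1 count over the 2 libraries of each of T3 and DMSO. A library with 0 counts allows up to 0.170 to 0.182 CPM at day 19 and 0.144 to 0.147 CPM at day 7, from 3 counts of its TMM-scaled total, with counting error alone. No difference in CYP7A1 was detectable at this depth.

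CYP8B1, the sterol hydroxylase that leads to cholic acid, rose with differentiation and was lower with either hormone at day 19. Its levels at day 19 were 2.74 and 2.44 CPM with T4, 4.25 and 3.26 CPM with T3, and 5.57 and 7.95 CPM in DMSO cells. At day 7 they were 1.13 and 1.27 CPM with T4, 1.42 and 1.76 CPM with T3, and 0.914 and 1.06 CPM in DMSO cells. At day 19 the hormone libraries lay below the DMSO libraries, and at day 7 they lay above them. Separation of 2 libraries from 2, here and for the other genes, is weak evidence. Its share over all genes was not counted. At day 19 CYP8B1 was 2.61-fold lower with T4 (log2 fold change -1.38 ± 0.22 SE, adjusted p = 0.000137) and 1.80-fold lower with T3 (-0.85 ± 0.21 SE, adjusted p = 0.00349) in edgeR's quasi-likelihood test. Without the second DMSO library of day 19, whose 7.95 CPM was the highest value, the adjusted p with T3 was 0.0700. At day 7 neither difference passed the test (log2 0.28 with T4 and 0.69 with T3, adjusted p = 0.678 and 0.138). CYP8B1 shares exonic sequence with ACKR2 on the opposite strand, and with no strand setting given, reads of the pair could not be told apart.

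CYP27A1, the mitochondrial sterol hydroxylase that starts the alternative route, was the best measured enzyme. At day 19 it stood at 30.4 and 33.6 CPM with T4, 23.3 and 29.02 CPM with T3, and 62.8 and 67.3 CPM in DMSO cells. Every hormone library lay well below both DMSO libraries. It was 2.03-fold lower with T4 (log2 -1.02 ± 0.09 SE, adjusted p = 2.98e-07) and 2.48-fold lower with T3 (-1.31 ± 0.09 SE, adjusted p = 1.44e-08). At day 7 it stood at 23.8 and 23.0 CPM with T4, 22.5 and 23.9 CPM with T3, and 27.6 and 28.8 CPM in DMSO cells. Here too the hormone libraries lay below both DMSO libraries, but the differences were small and did not pass the test (log2 -0.27 with T4 and -0.28 with T3, adjusted p = 0.113 and 0.0573). In T3-treated cells the level at day 19 differed from that at day 7 by a log2 of 0.18 (95% interval -0.03 to 0.38, adjusted p = 0.115), against a rise of 1.21 ± 0.09 SE in DMSO cells.

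CYP7B1, the oxysterol hydroxylase of the alternative route, had the largest hormone difference of the 7 tested genes at day 19 with either hormone. It stood at 1.77 and 1.25 CPM with T4, 1.08 and 1.57 CPM with T3, and 6.78 and 5.28 CPM in DMSO cells. The T4 and T3 libraries overlapped each other and were far below DMSO. CYP7B1 was 3.98-fold lower with T4 (log2 -1.99 ± 0.22 SE, adjusted p = 3.88e-06) and 4.53-fold lower with T3 (-2.18 ± 0.23 SE, adjusted p = 1.29e-06). At day 7 it stood at 5.89 and 6.63 CPM with T4, 5.09 and 4.84 CPM with T3, and 8.71 and 7.98 CPM in DMSO cells. The T3 difference at day 7 passed the test (log2 -0.75 ± 0.17 SE, adjusted p = 0.00754) and the T4 difference did not (-0.41 ± 0.16 SE, adjusted p = 0.159). The T3 call at day 7 was lost without the first DMSO library, without the second T3 library and with limma on log2(FPKM + 0.1), with adjusted p-values of up to 0.0781 over the alternatives. Unlike CYP27A1 and CYP8B1, CYP7B1 was lower in DMSO cells of day 19 than of day 7 (log2 -0.47 ± 0.17 SE, adjusted p = 0.0215), a call lost in 4 of 12 alternatives (among them without the first DMSO library of day 7 and without the second of day 19), with adjusted p-values of up to 0.192.

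BAAT, the conjugating enzyme, was lower with T3 than in DMSO cells at day 19, while the T4 difference did not pass the test. At day 19 it stood at 2.17 and 2.16 CPM with T4, 0.718 and 1.28 CPM with T3, and 1.94 and 2.55 CPM in DMSO cells. The T4 libraries lay between the DMSO libraries, and both T3 libraries lay below them. BAAT was 2.23-fold lower with T3 (log2 -1.16 ± 0.32 SE, adjusted p = 0.00768), whereas with T4 the log2 difference was -0.05 (95% interval -0.67 to 0.57, adjusted p = 0.908). The T3 call was lost without the second DMSO library of day 19, without the first T3 library of day 19 and with DESeq2, with adjusted p-values of up to 0.0976. At day 7 BAAT had 2 to 5 counts in every library. BAAT overlaps the pseudogene AL359893.1 on the opposite strand.

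SLC10A1, the sodium-dependent uptake carrier, had the widest range of the set. At day 19 it stood at 34.5 and 47.0 CPM with T4, 20.05 and 36.6 CPM with T3, and 72.1 and 74.4 CPM in DMSO cells. The hormone libraries spread widely and overlapped each other, and all 4 lay below both DMSO libraries. SLC10A1 was 1.80-fold lower with T4 (log2 -0.85 ± 0.18 SE, adjusted p = 0.00168) and 2.58-fold lower with T3 (-1.37 ± 0.19 SE, adjusted p = 2.44e-05). The T4 call was lost with limma on log2(FPKM + 0.1), at an adjusted p of 0.0608. At day 7 SLC10A1 stood at 2.06 and 1.32 CPM with T4, 2.65 and 2.84 CPM with T3, and 1.11 and 1.01 CPM in DMSO cells. Every hormone library there lay above both DMSO libraries. These differences did not pass the test (log2 0.67 with T4, adjusted p = 0.559, and 1.37 with T3, 95% interval 0.28 to 2.45, adjusted p = 0.0843). The T3 difference at day 7 passed in 4 of 12 alternatives.

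ABCB11, the export pump, had at most 4 counts in any library. It had 4 counts over both libraries with T4, 4 with T3 and 6 in DMSO cells at day 19, and 3 with T4, 0 with T3 and 2 in DMSO cells at day 7. At day 19 the ratio to DMSO was 0.626 with T4 (95% counting interval 0.13 to 2.64) and 0.649 with T3 (0.135 to 2.74), so a difference was not detectable at this depth.

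NR1H4, the bile acid receptor, was low at day 19 and close to 0 at day 7. Its counts at day 19 were 9 and 9 with T4, 15 and 8 with T3, and 12 and 16 in DMSO cells. At day 7 they were 5 and 2 with T4, 1 and 2 with T3, and 0 and 0 in DMSO cells. These are rounded expected counts, and the second DMSO library of day 7 listed NR1H4 at 0.01 FPKM. At day 19 the T3 and DMSO libraries overlapped, and neither hormone difference passed the test (log2 -0.72 with T4, 95% interval -1.77 to 0.33, adjusted p = 0.260, and -0.32 with T3, 95% interval -1.33 to 0.69, adjusted p = 0.601). In DMSO cells NR1H4 had 28 counts over both libraries at day 19 and 0 at day 7. With 3 counts put in for the 0, the scaled ratio was 11.8. With T4 at day 7 it had 7 counts, a ratio of 2.37 to DMSO cells on the same floor. Both ratios take the counts above 0 as exact and leave out the spread between libraries, so neither is a bound. The T4 difference at day 7 did not pass edgeR's test (adjusted p = 0.0822).

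NR0B2, the repressor that NR1H4 induces, was seen mainly in DMSO cells of day 19. It had 2 and 1 counts with T4, 1 and 1 with T3, and 3 and 8 in DMSO cells at day 19, and 0 to 2 counts in each library of day 7. The 3 counts in T4-treated cells against 11 in DMSO cells gave a ratio of 0.256 (95% counting interval 0.0459 to 0.969), and the 2 counts in T3-treated cells gave 0.177 (0.0191 to 0.811). These intervals cover counting error only. Fitted with no filter on low counts, the adjusted p was 0.216 with T4 and 0.125 with T3.

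FGF19, the hormone that signals to hepatocytes through FGFR4 and KLB, was a gene of day 7 in these cells. At day 7 it stood at 2.90 and 2.63 CPM with T4, 3.48 and 3.96 CPM with T3, and 3.03 and 3.99 CPM in DMSO cells. At day 19 it had 5 and 5 counts with T4, 0 and 3 with T3, and 1 and 4 in DMSO cells. In DMSO cells it had 5 counts over both libraries at day 19, against 146 at day 7, a difference that gets no test here because the gene passed the filter through day 7 alone. No hormone difference passed the test at day 7 (log2 -0.34 with T4, 95% interval -0.92 to 0.24, and 0.08 with T3, 95% interval -0.48 to 0.64). At day 19 the ratio of counts to DMSO was 1.88 with T4 (95% counting interval 0.585 to 7.00) and 0.584 with T3 (0.0907 to 3.001).

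**Figure D2:**
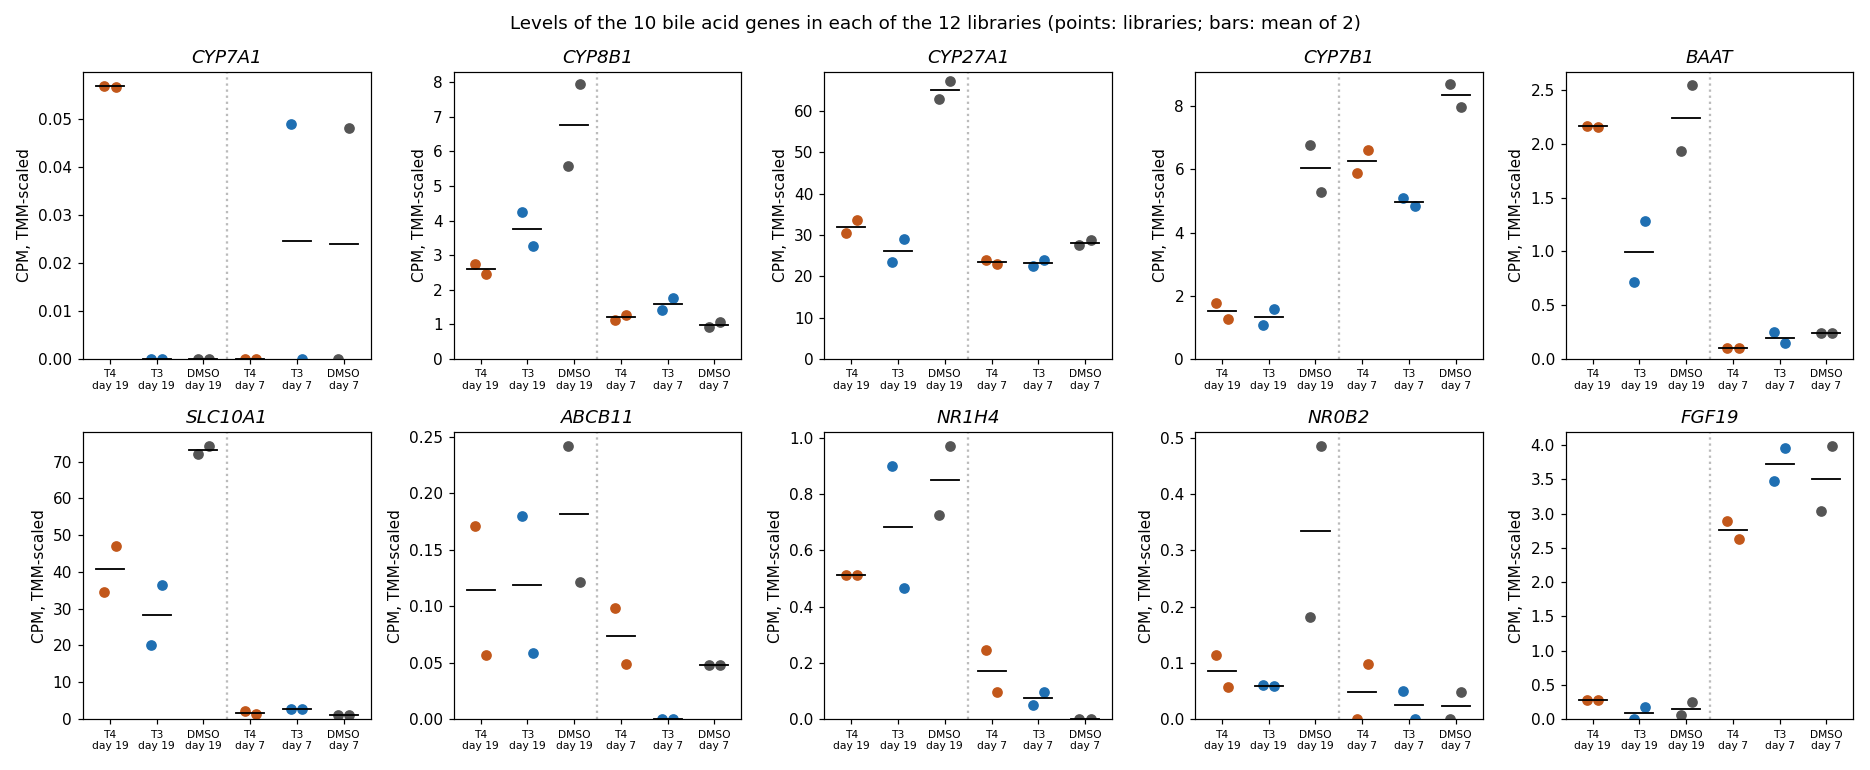
TMM-scaled CPM of each of the 10 bile acid genes in the 12 libraries, one panel per gene with its own axis from 0, groups on the horizontal axis, points for libraries and bars for the mean of 2. SLC10A1 and CYP27A1 lie below the DMSO libraries in all 4 hormone libraries of day 19, while FGF19 is high at day 7 alone.

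The first comparison asked how the hormones changed the set at day 19. With T4, 4 of the 7 tested genes were lower and 0 higher, where 21.9% of all tested genes were lower and 21.0% higher. With T3, 5 of 7 were lower and 0 higher, where 27.3% of all tested genes were lower and 25.1% higher. CYP7B1, CYP27A1, CYP8B1 and SLC10A1 were lower with each hormone and BAAT with T3, while NR1H4 and FGF19 passed with neither. The median log2 fold change of the 7 genes was -0.85 with T4 and -1.16 with T3, beside 0.000454 and -0.03 over all tested genes. Without the second DMSO library of day 19, 3 genes were called with T3. Both comparisons share the DMSO libraries. In the same libraries 9 of the 10 hepatocyte markers were lower with each hormone (median log2 -2.39 with T4 and -3.67 with T3). Fewer hepatocytes and less RNA per cell cannot be told apart in bulk samples, and the part of the marker levels in these results was not tested.

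**Figure D3:**
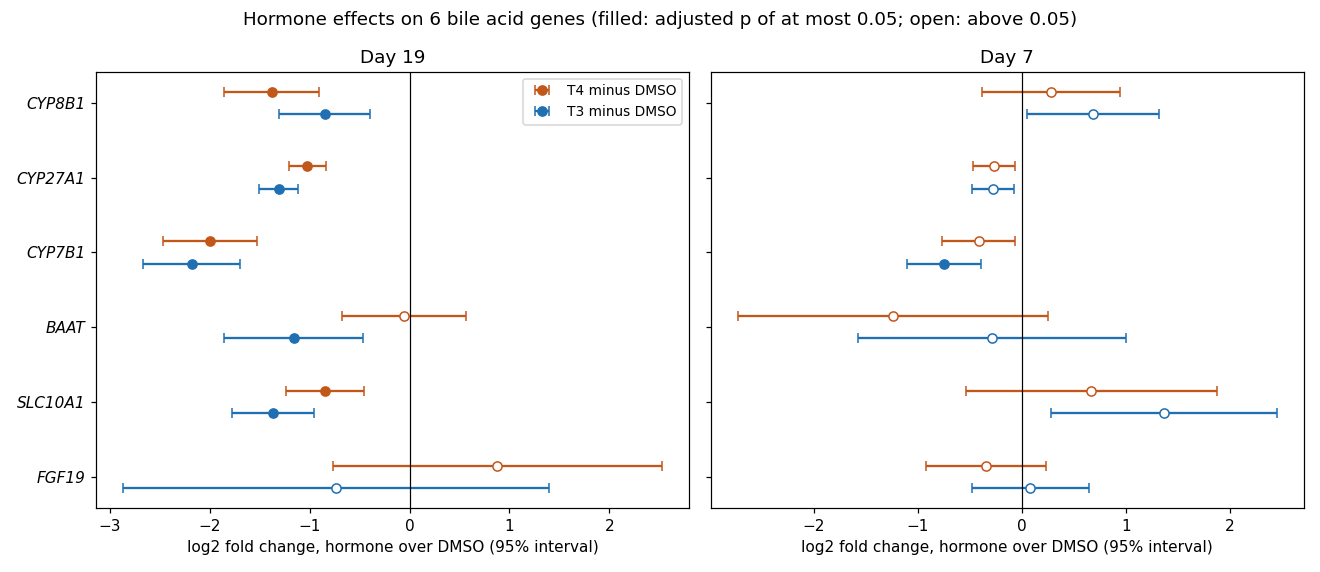
Log2 fold change over DMSO with its 95% interval (horizontal axis) for 6 tested bile acid genes (rows) at day 19 (left) and day 7 (right), with T4 in orange and T3 in blue, filled where the adjusted p is at most 0.05. NR1H4 is not drawn, since both DMSO libraries of day 7 had 0 counts. At day 19 CYP8B1, CYP27A1, CYP7B1 and SLC10A1 lie left of 0 with both hormones, and at day 7 CYP7B1 with T3 is the only filled point.

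At day 7 CYP7B1 with T3 was the 1 call of the set. With T4, 0 of 7 genes were called in either direction by edgeR's quasi-likelihood test, where 2.52% of all tested genes were lower and 3.90% higher, and with DESeq2 the count was also 0. At an unadjusted p of at most 0.05, edgeR's test held 3 of the 7 genes, CYP27A1, CYP7B1 and NR1H4, and 20.9% of all tested genes. Of these NR1H4 is not read, since it passed the filter through day 19 alone and had 0 counts in both DMSO libraries of day 7. With T3, CYP7B1 was lower, a call lost in the 3 alternatives named above, and 0 genes were higher, where 6.54% of all tested genes were lower and 9.43% higher. At the unadjusted threshold edgeR's test with T3 held CYP7B1, CYP27A1, SLC10A1 and CYP8B1, and 29.2% of all tested genes. Of these, CYP7B1 and CYP27A1 were on the lower side and SLC10A1 and CYP8B1 on the higher. At day 7 the pluripotency markers (8 genes such as POU5F1 and NANOG) summed to 2490 to 2519 CPM with T4, 2987 to 3013 CPM with T3 and 1651 to 1669 CPM in DMSO cells. Of them 7 were higher with each hormone. Of 8 hepatoblast markers 5 were lower with T4 and 7 with T3. Of 6 tested endoderm markers 4 were lower with each hormone, and of 10 hepatocyte markers 2 with T4 and 3 with T3. No gene of these lists was higher. Hepatocyte markers summed to 2916 to 2969 CPM with T4, 2772 to 2837 CPM with T3 and 3608 to 3629 CPM in DMSO cells. Of 7 cholangiocyte markers 2 were higher and 2 lower with each hormone. The part of these markers in the results was not tested.

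The difference between the hormone effects of the days was tested directly. With T4, 4 of 7 genes were called with a more negative effect at day 19 than at day 7 and 0 with a more positive one. Of all tested genes 15.3% and 12.4% were. NR1H4 is among the 4 and passed the filter through day 19 alone, so only CYP7B1, CYP8B1 and CYP27A1 are read here. With T3 the counts were also 4 and 0, where 20.9% and 17.1% of all tested genes did. CYP7B1 differed by a log2 of -1.58 ± 0.28 SE with T4 and -1.43 ± 0.29 SE with T3, and CYP8B1 by -1.66 ± 0.38 SE and -1.54 ± 0.36 SE. The calls of CYP7B1 were lost with limma on log2(FPKM + 1), at adjusted p-values of 0.105 with T4 and 0.349 with T3. CYP27A1 differed by -0.76 ± 0.13 SE with T4 and -1.03 ± 0.13 SE with T3. For SLC10A1 the difference passed with T3 (-2.74 ± 0.53 SE, adjusted p = 0.000919) and not with T4 (-1.52 ± 0.59 SE, adjusted p = 0.0723), where it passed in 6 of 16 alternatives, with adjusted p-values down to 0.00957. The call of NR1H4 with T4 rests on the 0 counts in DMSO cells of day 7, so no size is given for it here, and it was lost without either DMSO library of day 7, without the first T4 library of day 7 and with DESeq2.

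T4 and T3, which differ by an iodine atom, were compared at the same dose of 30 nM at each day, 1 pair of compounds at 2 days. At day 19, BAAT was higher with T4 than with T3 (2.15-fold, log2 1.11 ± 0.32 SE, adjusted p = 0.0322) and 0 genes were lower, where 7.42% of all tested genes were higher and 8.31% lower. The BAAT call was lost in 6 of 12 alternatives (among them without the first T3 library or without either T4 library of day 19), with adjusted p-values of up to 0.265. CYP27A1 (log2 0.29, 95% interval 0.09 to 0.49, adjusted p = 0.0525) and SLC10A1 (0.52, 95% interval 0.10 to 0.94, adjusted p = 0.0896) did not pass. Both passed with a term for the replicate number in the fit. Without the second T3 library of day 19, the higher of the pair for both genes, the log2 difference was 0.46 for CYP27A1 and 1.02 for SLC10A1. The intervals of the other genes were -1.04 to -0.03 for CYP8B1, -0.42 to 0.79 for CYP7B1, -1.49 to 0.69 for NR1H4 and -0.22 to 3.45 for FGF19. CYP8B1 did not pass edgeR's test either (adjusted p = 0.151). At day 7, 0 of 7 genes differed between T4 and T3 by edgeR's test, where 0.0387% of all tested genes were higher and 0.326% lower, and DESeq2 called 0 as well. At an unadjusted p of at most 0.05, edgeR's test held 0 of the 7 genes and 7.04% of all tested genes there. The interval of the difference was -0.19 to 0.22 for CYP27A1 and -0.04 to 0.70 for CYP7B1, and it was wider for the other tested genes, so these data do not show that T4 and T3 act alike.

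Between the days the set was read from the 4 genes that did not pass the filter through 1 day alone, SLC10A1, CYP8B1, CYP27A1 and CYP7B1. In DMSO cells the first 3 were higher at day 19 than at day 7 and CYP7B1 was lower, where 37.6% of all tested genes were higher and 34.9% lower. SLC10A1 rose to 73.2 ± 1.59 CPM at day 19, against 1.06 ± 0.07 CPM at day 7 (SD, n = 2 each), a log2 of 6.10 ± 0.30 SE, and CYP8B1 rose by 2.77 ± 0.25 SE. With T4 the same 3 genes were called higher and CYP7B1 lower, where 35.5% and 36.4% of all tested genes were. The CYP27A1 call with T4 (log2 0.45 ± 0.09 SE) was lost with limma on FPKM at either pseudocount, with adjusted p-values of up to 0.104. With T3, SLC10A1 and CYP8B1 were higher and CYP7B1 lower, where 35.2% and 37.9% were. With hormone the log2 difference of SLC10A1 between the days was 4.59 ± 0.30 SE with T4 and 3.37 ± 0.28 SE with T3. For the genes that the filter kept through 1 day, counts over both DMSO libraries were 74 at day 19 against 10 at day 7 for BAAT, 28 against 0 for NR1H4 and 5 against 146 for FGF19, and no test is drawn from them. NR0B2 had 11 counts in DMSO cells of day 19 against 1 at day 7.

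The wider pathway was described by 3 lists. Of the 16 tested genes of a list of other synthesis and conjugation genes, 11 were lower and 2 higher with T4 at day 19 (median log2 -0.46), and 11 lower and 3 higher with T3 (median -0.51). For all tested genes the percentages given above apply, with 21.9% lower with T4 and 27.3% lower with T3. AKR1D1, the steroid reductase that shapes the bile acid ring, averaged 20.3 CPM with T4, 8.97 CPM with T3 and 61.4 CPM in DMSO cells. ACOX2, the peroxisomal oxidase of side-chain shortening, averaged 9.02 CPM with T4, 3.27 CPM with T3 and 27.3 CPM in DMSO cells. Both were lower with each hormone, by a log2 of -1.60 and -1.60 with T4 and -2.77 and -3.06 with T3, and both were higher with T4 than with T3 (log2 1.18 and 1.46). SCP2 and HSD17B4, which act in the same peroxisomal steps, were also lower, by -0.88 and -0.86 with T4 and -1.12 and -1.05 with T3. FDX1, the electron carrier that serves CYP27A1, went the other way and was higher by 0.51 with T4 and 0.79 with T3. Between T4 and T3 at day 19, 4 genes of this list were higher and 1 was lower. Of all tested genes 7.42% were higher and 8.31% lower there. SCP2 was among the higher genes with a log2 of 0.24, and the lower one was FDX1 with -0.28. At day 7, 3 were lower and 1 higher with T4, where 2.52% of all tested genes were lower and 3.90% higher. With T3, 4 were lower and 2 higher, where 6.54% were lower and 9.43% higher. FDXR, the reductase that feeds FDX1, was the one with the smallest p and was higher by 0.59 with T4 and 0.82 with T3. AKR1D1 was lower by -0.62 with T4 and -0.68 with T3, the racemase AMACR by -0.29 and -0.39, and ACOX2 by -0.44 with T4, while POR was higher by 0.25 with T3. In DMSO cells 11 of the 16 were higher at day 19 than at day 7 and 3 lower. Of all tested genes 37.6% were higher and 34.9% lower. The smallest p belonged to POR (log2 2.18), SLC27A2 (2.68), FDX1 (1.37) and HSD3B7 (1.68).

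Of the 16 tested genes of a list of other transport genes, 7 were lower and 3 higher with T4 at day 19 (median log2 -0.31), where 21.9% of all tested genes were lower and 21.0% higher, and 8 lower and 4 higher with T3 (median -0.29), where 27.3% were lower and 25.1% higher. SLC51A, a subunit of the basolateral exporter, averaged 19.5 CPM with T4, 9.32 CPM with T3 and 82.2 CPM in DMSO cells. The canalicular exporter ABCC2 averaged 12.2 CPM with T4, 8.85 CPM with T3 and 38.3 CPM in DMSO cells. Both were lower with each hormone, by -2.07 and -1.65 with T4 and by -3.14 and -2.11 with T3 on the log2 scale. The sterol exporter pair ABCG5 and ABCG8 was close to 0 with hormone: ABCG5 had 14 counts with T4 and 3 with T3 against 202 in DMSO cells, and ABCG8 had 13 and 10 against 271. SLCO2B1 was lower by -1.09 with T4 and -1.48 with T3, and it was higher with T4 than with T3 (0.38), as were SLC51A (1.06) and the fatty acid binding protein FABP1 (0.98), while ABCG2 was lower (-0.33). In that comparison 5 genes of the list were higher and 1 lower, where 7.42% of all tested genes were higher and 8.31% lower. ABCB4, the phospholipid exporter of bile, was higher at day 19 by 1.13 with T4 and 1.23 with T3. At day 7 it was lower by -0.82 with each hormone, the 1 call of the list with T4. Of all tested genes 2.52% were lower and 3.90% higher with T4 at day 7. With T3 at day 7, 1 gene was lower and 2 higher, ABCC3 by 1.37 and ABCG2 by 0.24. Of all tested genes 6.54% were lower and 9.43% higher there. In DMSO cells 13 of the 16 were higher at day 19 than at day 7 and 1 lower. Of all tested genes 37.6% were higher and 34.9% lower. The smallest p belonged to ABCG2 (2.53), SLCO2B1 (3.39), ABCC3 (6.03) and SLC51A (3.86).

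Of the 25 tested genes of a list of other sensing and regulatory genes, 14 were lower and 4 higher with T4 at day 19 (median log2 -0.52), and 16 lower and 5 higher with T3 (median -0.67), beside the same shares of all tested genes. FGFR4, the receptor of FGF19, averaged 189 CPM with T4, 118 CPM with T3 and 471 CPM in DMSO cells. Its partner KLB, named for that role, was lower by -1.43 with T4 and -1.93 with T3. HNF4A, a nuclear receptor that activates many liver genes, averaged 86.8 CPM with T4, 60.0 CPM with T3 and 233 CPM in DMSO cells. FGFR4 and HNF4A were lower by -1.32 and -1.42 with T4 and by -2.00 and -1.95 with T3, and both were higher with T4 than with T3 (0.68 and 0.53). The oxysterol receptor NR1H3 was lower by -1.42 with T4 and -1.52 with T3, and the fatty acid receptor PPARA by -1.63 and -1.75. In T4 against T3 at day 19, 6 genes were higher and 1 lower, with NR2F1 at 1.35 and MAFG at -0.30. Of all tested genes 7.42% were higher and 8.31% lower there. At day 7, 2 genes were lower and 1 higher with T4, where 2.52% of all tested genes were lower and 3.90% higher. With T3, 4 were lower and 1 higher, where 6.54% were lower and 9.43% higher. HNF4A was lower by -0.39 with T4 and -0.52 with T3 and NR2F2 by -0.59 and -0.68, FGFR4 by -0.34 and PROX1 by -1.44 with T3, and KLF9, a known target of thyroid hormone, was higher by 0.49 with T4. In DMSO cells 23 of the 25 were higher at day 19 than at day 7 and 1 lower. Of all tested genes 37.6% were higher and 34.9% lower. The smallest p belonged to NR2F2 (3.54), the thyroid hormone receptor THRB (3.53), PPARA (2.76) and KLB (3.49). In the comparison of T4 with T3 at day 7, none of the tested genes of the 3 lists passed in edgeR's test. HNF4A and PROX1 also stand in the list of hepatoblast markers.

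**Figure D4:**
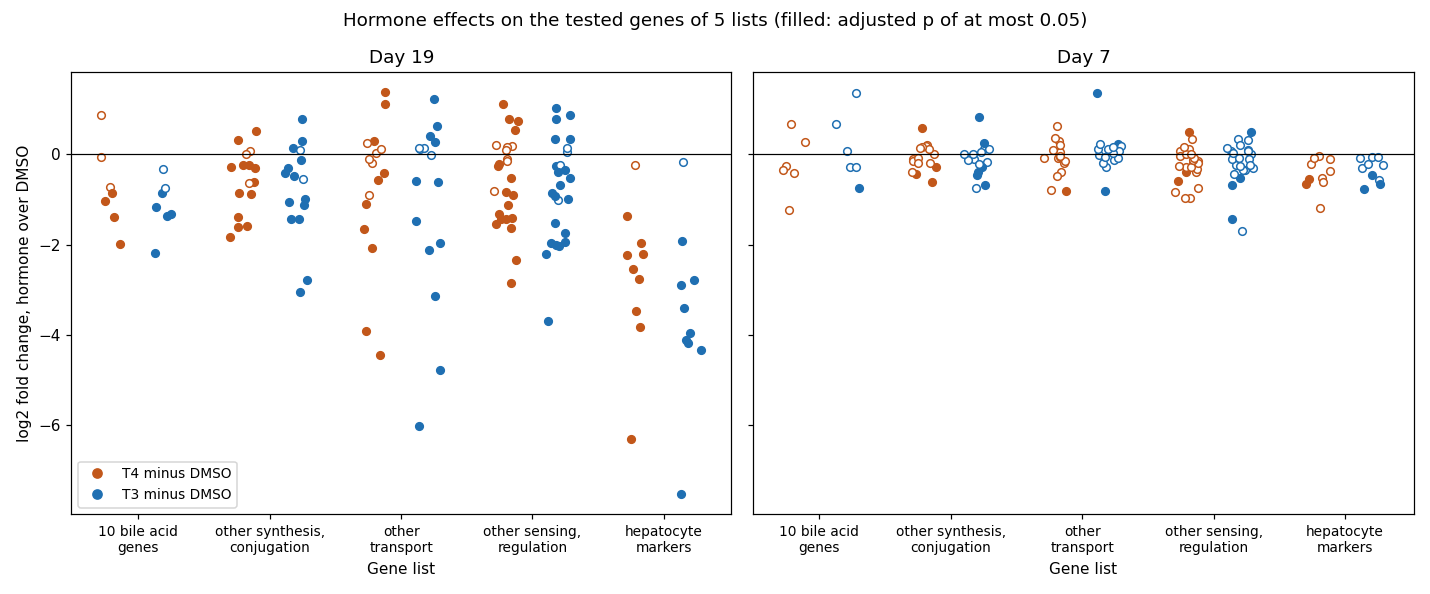
Log2 fold change over DMSO (vertical axis) of the tested genes of the 10 bile acid genes, the 3 wider pathway lists and the hepatocyte markers at day 19 (left) and day 7 (right), with T4 in orange left of T3 in blue and filled points at an adjusted p of at most 0.05. NR1H4 is left out at day 7. At day 19 the medians of the hepatocyte markers are -2.39 with T4 and -3.67 with T3, against -0.85 and -1.16 for the bile acid genes.

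Markers of other cell types were also read at day 19, where 21.9% of all tested genes were lower and 21.0% higher with T4, and 27.3% lower and 25.1% higher with T3. Of 8 tested markers of intestinal epithelium 6 were lower with T4 and 7 with T3 and 1, CDX1, was higher with each hormone, and their sum was 262 to 284 CPM with T4, 200 to 232 CPM with T3 and 674 to 679 CPM in DMSO cells, where all 10 listed were detected, SLC10A2 and FABP6 of the ileum included. Mesenchymal markers were lower in 6 of 7 with T4 and 7 of 7 with T3, with sums of 3205 to 3651 CPM, 2229 to 3069 CPM and 6419 to 6641 CPM in DMSO cells. Of 7 cholangiocyte markers 2 were higher and 3 lower with each hormone, and their sum was 2869 to 3200 CPM with T4, 3152 to 3154 CPM with T3 and 1843 to 1891 CPM in DMSO cells. Of 8 hepatoblast markers 1 was higher with each hormone, and 5 were lower with T4 and 6 with T3. Their sum was 3297 to 3794 CPM with T4, 1710 to 2250 CPM with T3 and 35451.5 to 38242.2 CPM in DMSO cells. In DMSO cells of day 7 that sum was 1028 to 1039 CPM. Of 8 pluripotency markers 4 were higher with each hormone, and of 6 tested endoderm markers 3 were lower with T4 and 4 with T3. The part of these cells in the levels of the bile acid genes was not tested.

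The genes whose levels followed each tested bile acid gene most closely were found among 12443 genes by the Pearson correlation of log2(CPM + 1) over the 12 libraries. The libraries fall into 6 groups of 2, so the points are not independent and the values are a description. For SLC10A1 they were KCNMA1 (0.996) and PLP2 (0.994), for CYP27A1 TMEM41A (0.997) and SPARC (0.995), and for CYP7B1 GOLM1 (0.982) and CHST9 (0.980). For CYP8B1 they were RHBDF2 (0.981) and UQCRC2 (0.980), for BAAT SORBS3 (0.987) and CCS (0.985), for NR1H4 LAD1 (0.970) and LEPR (0.964), and for FGF19 DBR1 (0.999) and MAD2L1BP (0.993).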

How the data were processed

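Total RNA of 12 libraries was sequenced. The deposited tables give, per RefSeq transcript, expected counts (not normalised, with shared reads divided in proportion) and FPKM values scaled by the authors to length and depth. Per the submitters' processing notes, the build was hg38 and the tools were HISAT, Bowtie2 and RSEM, versions not given in the sources used here. Only transcripts with at least 0.01 FPKM are listed, so 0 means at or near 0. The deposited expected counts were summed per Entrez gene and rounded (Python 3.11.15, pandas 2.3.3, numpy 2.4.6). Of 23922 genes 23801 matched a RefSeq symbol, and the others held 0.103% to 0.145% of counts.

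The main test was edgeR 4.0.16 (R 4.3.3): quasi-likelihood fit of all 12 libraries with a mean per group, TMM scaling, filterByExpr on the 6 groups, 6 residual degrees of freedom, common biological coefficient of variation 5.42%, and Benjamini-Hochberg adjustment over 18101 genes in each of 11 comparisons, with calls at an adjusted p of at most 0.05. The main edgeR fit was tested on simulated counts for T3 against DMSO at day 19, with changes put into well-counted genes only. The other comparisons, DESeq2, limma and changes in low-count genes were not covered. Intervals are 95%, and floors are 3 counts, both for counting error only where counts are given. DESeq2 1.42.0, limma 3.58.1 on FPKM with pseudocounts of 0.1 and 1 and genes of at least 0.5 FPKM, and other scalings were alternatives. Overlaps come from GENCODE 29, promoter windows from RefSeq GRCh38.p14. The text names all 10 genes, from the 3 wider lists the 4 genes with the smallest p in each hormone comparison and between the days in DMSO, and for each tested gene the 2 most alike genes with a mean of at least 5 CPM. Members, lists and markers were chosen with earlier results of these data known. Counts of 2 libraries of a group differed by more than sampling noise (chi-square per gene 1.58 to 2.10 at day 7 and 4.96 to 8.62 at day 19), so none was a repeated deposit.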

Additional observations from a re-analysis of the deposited data

Results flagged for a closer look

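For several genes the hormone effect at day 19 differed from the effect of the same hormone at day 7, by the test of that difference in edgeR's quasi-likelihood fit. The effects, on the log2 scale and as day 19 minus day 7, were more negative at day 19. With T4 the difference was -1.66 for CYP8B1, -1.58 for CYP7B1 and -0.76 for CYP27A1. With T3 it was -2.74 for SLC10A1, -1.54 for CYP8B1, -1.43 for CYP7B1 and -1.03 for CYP27A1. The calls of CYP7B1 were lost with limma on log2(FPKM + 1), at adjusted p-values of 0.105 with T4 and 0.349 with T3. NR1H4 was marked with T4 as well, with a fitted value of -5.46 that rests on 0 counts in both DMSO libraries of day 7 and is neither a size nor a bound.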

How the results depend on the processing

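Over 9 kinds of alternative, 875 log2 fold changes of the tested bile acid genes kept their direction and side of the threshold. Of the others, 32 lost their call, 21 gained one and 18 changed sign. Counts of called genes are not among these values. The cause of each change was not tested unless stated. No consistent pairing by replicate number was seen, and the labels do not speak of pairing. Deviations of same-numbered libraries correlated by -0.01 to 0.01 at day 7 and by -0.16 to 0.22 at day 19. With the replicate block, 3 bile acid genes were called with T3 at day 7 and 3 between T4 and T3 at day 19, against 1 and 1 without it. With only the groups compared, the counts were 3 with T3 at day 7, 2 with T4 at day 7, against 0, and 0 between T4 and T3 at day 19. DESeq2 called 2 with T3 at day 7 and 0 between T4 and T3 at day 19, and limma on log2(FPKM + 0.1) called 0 in the last. Leaving out 1 library gave 0 to 1 with T3 at day 7, 3 to 5 with T3 at day 19 and 0 to 4 between T4 and T3 at day 19. The 4 between T4 and T3 include FGF19, whose remaining T3 library of day 19 had 0 counts. Signs changed in differences that were not called. BAAT with T4 at day 19 was 0.066 and 0.025 with limma on FPKM, where the median of all genes was 0.13 and 0.09. CYP27A1 between the days with T3 was -0.12 and -0.11, where that median was -0.33 and -0.24, so relative to all genes it stayed higher. Leaving out 1 library gave -0.69 to 0.030 for BAAT with T3 at day 7, -0.099 to 0.30 for FGF19 with T3 at day 7, -0.028 to 0.051 for CYP27A1 between T4 and T3 at day 7, -0.86 to 0.081 for NR1H4 and -4.58 to 0.50 for FGF19 with T3 at day 19, -0.24 to 0.16 for BAAT with T4 at day 19, -0.80 to 0.14 for NR1H4 and -0.085 to 0.48 for CYP7B1 between T4 and T3 at day 19, and -4.67 to 0.42 for the T3 effect difference of FGF19. The values of -4.58 and -4.67 are fitted with 1 T3 library of day 19 that had 0 counts of FGF19, and are neither a size nor a bound. Over all genes, called counts moved by over 1.5 times mainly at day 7: with T3 5190 with only the groups compared and 1308 to 1461 with a library of either group left out, against 2891, and with T4 3737 and 370 to 393, against 1162. Between T4 and T3 they were 379 and 19 to 26 at day 7, against 66, with 37 by limma on log2(FPKM + 0.1), and at day 19 they were 1496 with only the groups compared and 1510 to 3322 with a library left out, against 2848. On FPKM, the share of calls that were higher was 68.1% with T4 at day 19, against 48.9%, 67.9% between T4 and T3 at day 19, against 47.2% (36.9% with DESeq2), and 33.0% between the days in DMSO cells, against 51.9%. It was 37.6% with T4 and 35.5% with T3 between the days, against 49.4% and 48.1%, and 69.6% and 58.7% for the effect differences, against 44.8% and 45.0%. Depth limits CYP7A1, ABCB11, NR0B2 and, at day 7, NR1H4.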
